A study of Mus musculus with 6 samples.

Results

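The nuclear genes of the oxidative phosphorylation chain beyond complex I were examined in mouse hippocampus. Members were chosen by symbol: Sdha to Sdhd, all names starting with Uqcr, Cox4 to Cox8 or Atp5, and Cyc1 and Cycs, leaving out rows marked as pseudogenes by "-ps" in the symbol. The rule found 49 genes among 31838 in the table, and all 49 passed the filter on low counts that left 20428 genes for testing. They comprised 4 genes of complex II, 9 of complex III, 16 of complex IV and 17 of complex V. The others were Cycs (cytochrome c), Cox7a2l (described as a factor of supercomplexes of III and IV, a role not examined here) and Cox6c2. The deposited annotation calls Cox6c2 a processed pseudogene. The rule left out 9 "-ps" rows. The members are spread over 19 chromosomes.

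Polyadenylated RNA had been sequenced from the hippocampus of wild-type C57BL/6 mice aged 4 months. Treated mice were given BBP (butyl benzyl phthalate, used to soften plastics) at 50 mg/kg/day and control mice corn oil, with 3 libraries in each group. The title of the study concerns phthalates and cognitive impairment, and the question here is what set the treated hippocampus apart. Nothing in the labels tells if the libraries of a group are different animals, and all p-values refer to variation among the libraries as given.

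Complexes II, III and IV pass electrons from succinate and from reduced coenzyme Q through cytochrome c to oxygen, and complex V, the ATP synthase, uses the proton gradient built by the chain to make ATP. All subunits of complex II are nuclear-encoded, whereas complexes III, IV and V also hold subunits encoded by mitochondrial DNA, so nuclear and mitochondrial products must be made together. Neurons depend on this pathway to pay for ion pumping and synaptic transmission. Several subunits of complex IV exist as a form used in most tissues and another used mainly in muscle, lung or testis, and the c subunit of the ATP synthase is encoded by a family of genes whose mature products are the same.

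Atp5g1 had the smallest p of the members, so the coding sequences of its family, Atp5g1, Atp5g2 and Atp5g3, are shown. The c subunit forms the ring in the membrane that turns as protons pass. Each gene encodes a mitochondrial targeting sequence of its own, and the proteins share an identical end of 78 residues. In front of this end lie 58 residues in Atp5g1, 68 in Atp5g2 and 63 in Atp5g3. Where the targeting sequence is cut off was not determined, so the shared end can hold some of its residues. The 234 coding bases of this shared end, read from GENCODE M21 transcripts, are written in the sense direction, with capitals at the 63 positions where the genes are not all the same.
Atp5g1: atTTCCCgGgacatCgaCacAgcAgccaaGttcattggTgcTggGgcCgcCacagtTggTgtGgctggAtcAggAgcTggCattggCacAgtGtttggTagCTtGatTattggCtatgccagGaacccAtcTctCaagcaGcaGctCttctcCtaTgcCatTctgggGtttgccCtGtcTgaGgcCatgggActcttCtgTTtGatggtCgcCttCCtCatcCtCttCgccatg
Atp5g2: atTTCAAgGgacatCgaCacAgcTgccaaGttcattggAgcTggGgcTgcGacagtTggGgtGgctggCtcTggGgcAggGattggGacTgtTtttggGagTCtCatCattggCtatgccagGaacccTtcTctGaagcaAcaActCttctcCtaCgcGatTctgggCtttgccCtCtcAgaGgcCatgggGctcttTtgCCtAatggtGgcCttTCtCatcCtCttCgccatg
Atp5g3: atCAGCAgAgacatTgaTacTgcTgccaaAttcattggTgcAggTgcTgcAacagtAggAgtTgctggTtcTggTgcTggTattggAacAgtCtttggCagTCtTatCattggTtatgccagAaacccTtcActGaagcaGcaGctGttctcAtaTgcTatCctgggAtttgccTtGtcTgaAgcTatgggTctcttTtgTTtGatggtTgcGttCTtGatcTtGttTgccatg
Atp5g1 and Atp5g2 differed at 36 of these bases, Atp5g1 and Atp5g3 at 50, and Atp5g2 and Atp5g3 at 53. The genes lie apart, with Atp5g1 at chr11:96068852-96075670, Atp5g2 at chr15:102662864-102672352 and Atp5g3 at chr2:73908447-73911326 (mm10, all on the minus strand).

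Nearly all members were lower in BBP than in corn oil, by small amounts that did not pass the test over all genes. The log2 fold change (BBP over corn oil, edgeR) was negative for 47 of 49 members, with a median of -0.20, against a median of 0.01 and 9715 negative values among the 20428 genes tested. The exceptions were Cox6a1, at 0.03, and Cox4i2, at 0.38. Complex II, III, IV and V had medians of -0.13, -0.20, -0.23 and -0.19, with 4 of 4, 9 of 9, 14 of 16 and 17 of 17 negative values. Cycs stood at -0.05. Whether one complex was lower than another was not tested. In bulk tissue, fewer cells of a type and less RNA per cell cannot be told apart.

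By edgeR's quasi-likelihood test 0 of 49 members had an adjusted p under 0.05, as did 0 of all genes tested (0%), and the smallest adjusted p was 0.953. DESeq2 called 0 members and 3 genes in all, and limma called 0 genes. At an unadjusted p under 0.05, 2 members (4.08%) were lower, against 1.37% of all genes, and 0 were higher, against 1.98%. These were Atp5g1 and Atp5l. Values of BBP and corn oil did not overlap, with BBP lower, for 7 members (14.3%), against 5.32% of all genes. They were Uqcr11, Uqcrc2, Cox6b2, Atp5c1, Atp5g1, Atp5g3 and Atp5l. No member had all BBP libraries above corn oil, which 5.1% of all genes had.

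**Figure D1:**
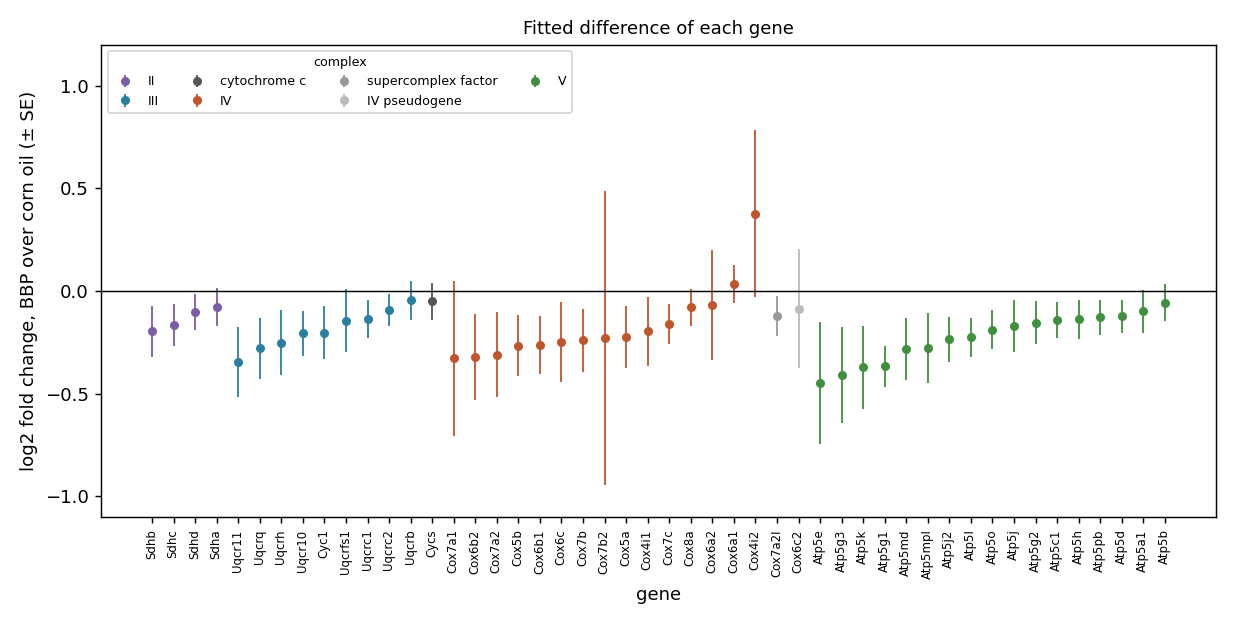
Log2 fold change of each gene, BBP over corn oil, with bars of 1 standard error of the edgeR fit. Genes run from left to right by complex, coloured by complex, and Cox8b (-2.03 ± 1.05) is left off for scale. Nearly all points lie below 0, between -0.45 for Atp5e and 0.38 for Cox4i2, and many bars are long.

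The difference came from some BBP libraries more than others. As log2 CPM minus the corn oil mean, the median member stood at -0.01, -0.38 and -0.21 in BBP libraries 1 to 3, against -0.00, -0.04 and 0.04 in corn oil libraries 1 to 3. BBP library 1 thus lay with the corn oil libraries, and BBP libraries 2 and 3 lay below all of them. In BBP libraries 1, 2 and 3, 28, 43 and 46 of 49 members were below the corn oil mean, against 25, 34 and 19 in the corn oil libraries. The same order was seen in each complex. BBP library 2 stood at -0.31 in complex II, -0.49 in III, -0.47 in IV and -0.40 in V, and BBP library 3 at -0.10, -0.19, -0.25 and -0.19. Before scaling between libraries, members made up 0.801%, 0.586% and 0.738% of the counts in BBP libraries 1 to 3, against 0.799%, 0.789% and 0.807% in corn oil libraries 1 to 3.

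Without BBP library 2 the members' median was -0.09, with 45 of 49 negative, and complex II, III, IV and V stood at -0.05, -0.08, -0.11 and -0.10. In that fit 1 member (2.04%) was lower at an unadjusted p under 0.05, against 1.36% of all genes. Without BBP library 1 the median was -0.29 and 26 of 49 members (53.1%) were lower at an unadjusted p under 0.05, against 3.83% of all genes, with a smallest adjusted p of 0.700 by edgeR. These were 2 genes of complex II, 5 of III, 8 of IV and 11 of V. Each of the other fits that leave out 1 library, from either group, had 1 such member. The library left out to reach 26 was the BBP library that lay with corn oil. How many members passed this threshold thus depended on whether BBP library 1 was kept.

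**Figure D2:**
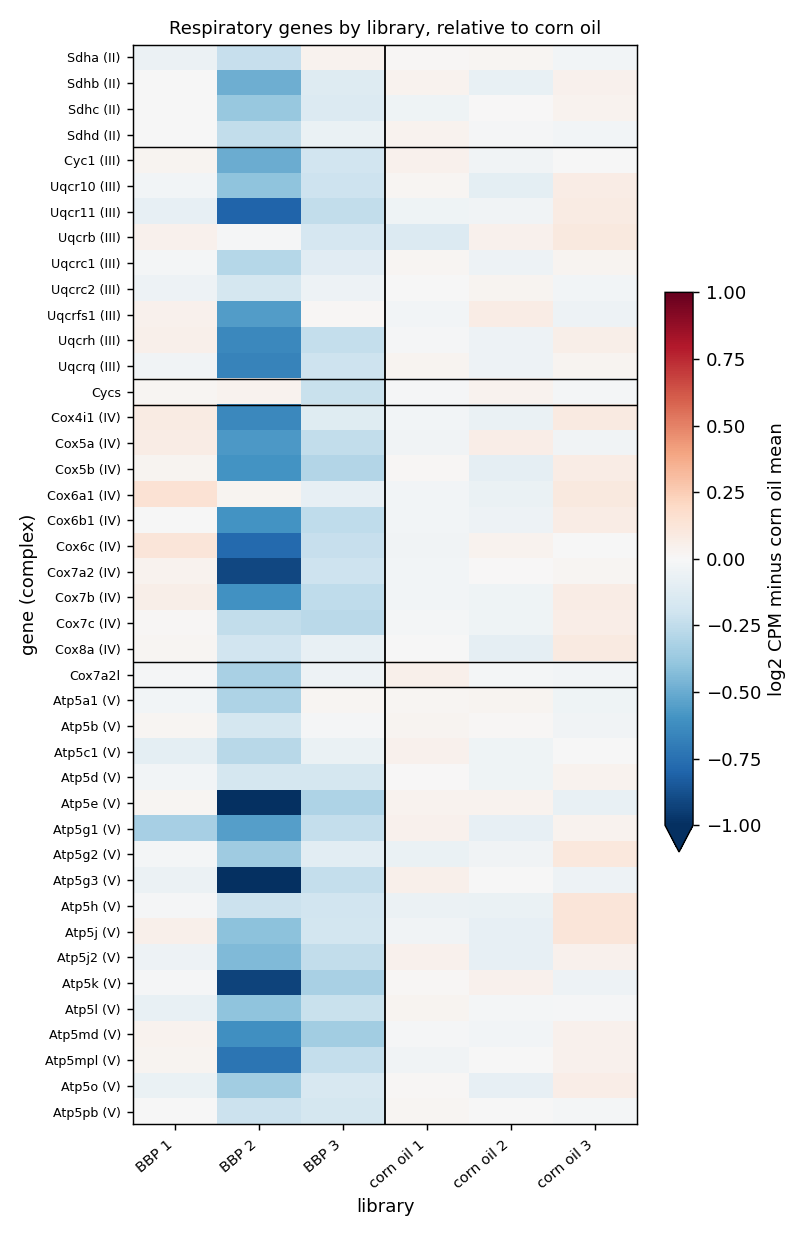
Log2 CPM minus the corn oil mean for 42 members (rows, by complex) in the 6 libraries (columns, BBP left of corn oil), without the low tissue isoforms and Cox6c2. Blue is below and red above the corn oil mean, and values below -1 take the darkest blue. BBP library 2 is blue in almost every row, BBP library 3 more faintly so, and BBP library 1 resembles corn oil apart from Atp5g1.

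The values of the BBP libraries scattered more, with the median member lowest in BBP library 2 (-0.38 on the log2 CPM scale). How much of the scatter came from BBP library 2 alone was not computed. The coefficient of variation of FPKM (fragments scaled by transcript length and library depth) was larger in BBP than in corn oil for 48 of 49 members (98%), against 72.4% of all genes. Its median over members was 19.4% in BBP and 4.06% in corn oil, against 17.9% in BBP and 10.1% in corn oil over all tested genes, most of which are at lower levels. Uqcrb, a small subunit of complex III, was the exception.

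Several other measures differed among the libraries. Mitochondrially encoded genes took 7.79%, 11.5% and 7.17% of the counts in BBP libraries 1 to 3 and 7.11%, 7.61% and 8.57% in corn oil libraries 1 to 3, so BBP library 2 was highest. The summed FPKM of the isocortical markers Lamp5, Rorb and Cux2 was 74.4, 18.7 and 19.1 in BBP and 18.1, 20.4 and 25.8 in corn oil. That of the dentate granule neuron markers Prox1, C1ql2 and Dsp was 14.5, 40.9 and 37.2 in BBP and 33.9, 38.9 and 23.1 in corn oil. BBP library 1 was thus highest for isocortex and lowest for dentate gyrus. The part of tissue composition in the members' values was not tested.

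Complex II, succinate dehydrogenase, links the citric acid cycle to the chain, and its genes were the least shifted of the complexes by median. Sdha, the flavoprotein that oxidises succinate, was its most abundant transcript, at 82.1, 67.7 and 88.7 FPKM in BBP libraries 1 to 3 and 85.6, 85.9 and 83.6 FPKM in corn oil libraries 1 to 3. BBP library 3 was above every corn oil library, and BBP libraries 1 and 2 were below them all, BBP library 1 only just. The log2 fold change was -0.08 ± 0.09 (SE). Sdhb, the iron-sulfur subunit, had 39.9, 26.5 and 37.1 FPKM in BBP and 40.9, 37.8 and 41.2 FPKM in corn oil. The groups overlapped and the log2 fold change was -0.20 ± 0.13. Sdhc and Sdhd, the membrane anchors, had log2 fold changes of -0.17 ± 0.10 and -0.10 ± 0.09, and their BBP values reached 22.3 and 56.9 FPKM, within the range of corn oil. The summed FPKM of complex II was 201, 155 and 202 in BBP and 206, 202 and 204 in corn oil.

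Complex III, which oxidises reduced coenzyme Q and reduces cytochrome c, summed to 635, 441 and 579 FPKM in BBP and 626, 624 and 651 FPKM in corn oil, so BBP library 1 lay within the range of corn oil. Uqcr11, a small accessory subunit, had the most negative log2 fold change of the complex. It stood at 64.9, 36.4 and 58.6 FPKM in BBP and 66.1, 66.4 and 72.4 FPKM in corn oil. All BBP libraries were below all corn oil libraries, BBP library 1 only just, and the log2 fold change was -0.34 ± 0.17 (unadjusted p = 0.0765).

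Uqcrq, another small subunit, had 37.2, 22.3 and 33.5 FPKM in BBP and 38.5, 36.5 and 38.8 FPKM in corn oil, with a log2 fold change of -0.28 ± 0.15. Uqcrh, the hinge protein beside cytochrome c1, had 91.7, 52.5 and 75.9 FPKM in BBP and 87.4, 85.0 and 92.1 FPKM in corn oil, with a log2 fold change of -0.25 ± 0.16. In both, BBP libraries 2 and 3 were below corn oil and BBP library 1 was not. Cyc1, the cytochrome c1 that hands electrons to cytochrome c, had the same arrangement, with 60.9, 39.4 and 53.0 FPKM in BBP and 60.9, 58.0 and 59.4 FPKM in corn oil, and a log2 fold change of -0.20 ± 0.13. Uqcr10, the most abundant transcript of the complex, averaged 88.6 ± 14.5 FPKM in BBP and 103 ± 6.28 FPKM in corn oil (SD, n = 3 each).

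The core proteins, the Rieske protein and Uqcrb complete the complex. Uqcrc2, a core protein, had 70.1, 59.6 and 71.2 FPKM in BBP and 72.1, 73.5 and 71.3 FPKM in corn oil. The groups did not overlap, but BBP library 3 and corn oil library 3 were almost equal, and the log2 fold change was -0.09 ± 0.08. Uqcrc1, the other core protein, stood at -0.14 ± 0.09. Uqcrfs1, the Rieske iron-sulfur protein, stood at -0.15 ± 0.15, and at 0.02 without BBP library 2. Uqcrb had 78.3, 70.0 and 68.6 FPKM in BBP and 68.6, 77.7 and 81.3 FPKM in corn oil, with full overlap and a log2 fold change of -0.05 ± 0.10.

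Cycs, the mobile carrier between complexes III and IV, had a value in BBP library 2 that depended on the scale. It had 42.4, 39.7 and 36.4 FPKM in BBP and 41.2, 42.6 and 41.1 FPKM in corn oil, so BBP library 3 was the lowest and BBP library 2 the next. On the log2 CPM scale it stood 0.03 above the corn oil mean in BBP library 2, where the median member stood 0.38 below it. The log2 fold change was -0.05 ± 0.09. CPM was scaled by a library factor (TMM), 0.948 in BBP library 2 and 1.01 in each other library, and the deposited FPKM were not scaled by it. The difference between the scales thus applied to all genes in BBP library 2 and not to Cycs alone.

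Complex IV, cytochrome c oxidase, passes electrons to oxygen and held the most abundant transcripts of the set. In FPKM, Cox8a averaged 429 ± 47.6 in BBP and 459 ± 30.6 in corn oil, and Cox6a1 averaged 322 ± 28.6 in BBP and 319 ± 20.5 in corn oil (SD, n = 3 each). In the corn oil libraries Cox8a and Cox6a1 led the order. Cox4i1, at 252 ± 15.6 FPKM, and the catalytic core subunits of the ATP synthase, Atp5a1 at 241 ± 5.82 and Atp5b at 239 ± 5.02, came next and did not differ beyond their spread. The summed FPKM of complex IV was 1774, 1250 and 1552 in BBP and 1671, 1623 and 1798 in corn oil.

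Cox4i1, the regulatory subunit that binds ATP, had 268, 151 and 236 FPKM in BBP and 247, 240 and 270 FPKM in corn oil. BBP library 2 was far below the other libraries and BBP library 1 was within corn oil. The log2 fold change was -0.20 ± 0.17, and -0.02 without BBP library 2. Cox7a2, a small subunit, had 91.3, 43.9 and 78.1 FPKM in BBP and 87.0, 88.9 and 90.2 FPKM in corn oil. BBP library 1 was the highest of all and BBP library 2 the lowest, and the log2 fold change was -0.31 ± 0.21. Cox6b1, which faces the intermembrane space, had 171, 105 and 146 FPKM in BBP and 167, 165 and 180 FPKM in corn oil, with a log2 fold change of -0.26 ± 0.14. Cox7b had 111, 65.3 and 90.9 FPKM in BBP and 104, 103 and 112 FPKM in corn oil, at -0.24 ± 0.15. Both were lowest in BBP library 2 and next lowest in BBP library 3.

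Cox6a1, the ubiquitous form of subunit VIa, was not lowered. It had 355, 304 and 307 FPKM in BBP and 312, 303 and 343 FPKM in corn oil. Its groups overlapped, although BBP library 1 was above every corn oil library. In BBP library 2 Cox6a1 stood 0.03 above the corn oil mean on the log2 CPM scale, where Cox6c stood at -0.78 and Cox7a2 at -0.91. Cox8a, at 468, 376 and 443 FPKM in BBP and 457, 430 and 491 FPKM in corn oil, was also little shifted, at -0.08 ± 0.09. The remaining subunits Cox5a, Cox5b, Cox6c and Cox7c had log2 fold changes between -0.27 and -0.16, and their groups overlapped. Cox6c, a small membrane subunit, had 52.9, 26.3 and 41.9 FPKM in BBP and 47.1, 49.5 and 48.5 FPKM in corn oil. BBP libraries lay on both sides of corn oil, with BBP library 1 above and the other two below. Cox5b, a zinc-binding subunit on the matrix side, had 84.1, 50.4 and 68.3 FPKM in BBP and 82.7, 76.9 and 86.8 FPKM in corn oil. Only BBP library 1 was within the range of corn oil.

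Cox7a2l, a relative of Cox7a described as a supercomplex factor, had 74.9, 56.2 and 74.2 FPKM in BBP and 78.0, 73.9 and 74.1 FPKM in corn oil. BBP library 2 alone lay below the corn oil values, and the log2 fold change was -0.12 ± 0.10. Cox6c2, the annotated pseudogene, had 7.18, 5.21 and 3.84 FPKM in BBP and 6.00, 5.94 and 5.59 FPKM in corn oil. It was lowest in BBP library 3, an order unlike that of Cox6c.

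**Figure D3:**
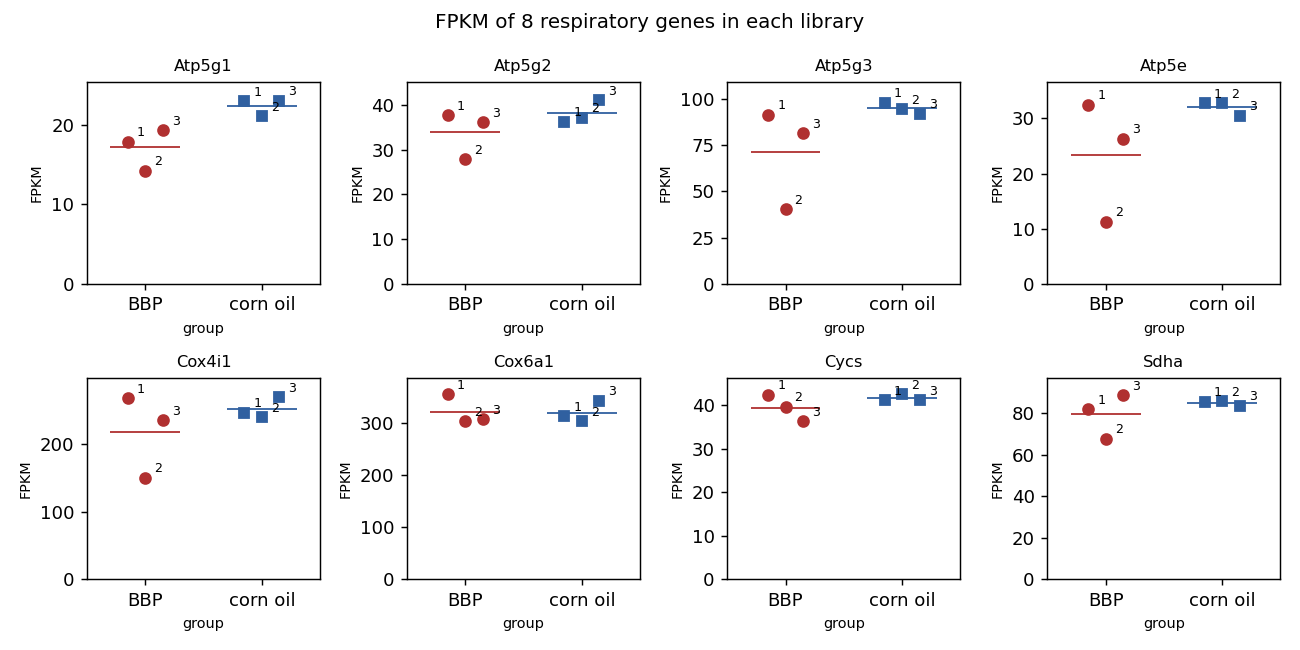
FPKM of 8 genes in each library, BBP (red circles) left of corn oil (blue squares), with replicate numbers and the group mean as a line, and axes starting at 0. Atp5g1 lies lower in all 3 BBP libraries, Atp5g3, Atp5e and Cox4i1 mainly in BBP library 2, and the groups overlap for Cox6a1, with BBP library 1 highest.

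All 17 genes of complex V had a negative log2 fold change (16 without BBP library 2). Of these, 2 were lower at an unadjusted p under 0.05, against 1.37% of all genes, and 0 passed the adjusted test. Groups did not overlap, with BBP lower, for 4 of the 17, against 5.32% of all genes. Complex V held 17 of the 49 members and 4 of the 7 without overlap, and a difference from the other complexes was not tested. The most consistent gene of complex V was Atp5g1. It had 17.8, 14.2 and 19.3 FPKM in BBP libraries 1 to 3 and 22.9, 21.1 and 23.0 FPKM in corn oil libraries 1 to 3. All BBP libraries were below all corn oil libraries, and here BBP library 1 was lowered too, by 0.33 on the log2 CPM scale, where the median member stood at -0.01. The log2 fold change was -0.37 ± 0.10 with an unadjusted p of 0.00612, the smallest of the members, and an adjusted p of 0.953 by edgeR. Without BBP library 2 it was -0.28 (unadjusted p = 0.00801), and it lay between -0.44 and -0.28 over the fits that leave out 1 library.

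The other c-subunit genes had other patterns. Atp5g3, the most abundant of the family, had 91.5, 40.5 and 81.7 FPKM in BBP and 98.1, 94.7 and 92.0 FPKM in corn oil. BBP library 1 lay just under corn oil library 3, and BBP library 2 was far below, at -1.13 on the log2 CPM scale. The log2 fold change was -0.41 ± 0.23, and -0.15 without BBP library 2. Atp5g2 had 37.7, 27.8 and 36.1 FPKM in BBP and 36.3, 37.2 and 41.1 FPKM in corn oil, with overlap and a log2 fold change of -0.15 ± 0.11.

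As shares of the family's summed FPKM, Atp5g1 held 12.1%, 17.2% and 14.1% in BBP and 14.6%, 13.8% and 14.7% in corn oil. Atp5g2 held 25.7%, 33.7% and 26.4% in BBP and 23.1%, 24.3% and 26.3% in corn oil. Atp5g3 held 62.2%, 49.0% and 59.6% in BBP and 62.4%, 61.9% and 58.9% in corn oil. BBP library 2 had the smallest Atp5g3 share, and no share separated the groups (two-sided exact permutation p = 0.9, 0.2 and 0.6 for Atp5g1, Atp5g2 and Atp5g3, where 0.1 is the smallest that 3 against 3 allows). The Atp5g3 share differed by -4.15 percentage points, BBP minus corn oil, and by -0.194 without BBP library 2, and the Atp5g2 share by 4.03 and 1.45. The order of Atp5g1 and Atp5g2 depends on the length used: by deposited counts Atp5g1 held 29.1% and Atp5g2 15.7% in corn oil library 1. The longest annotated coding transcript of Atp5g1 has 4715 bases, against 753 for Atp5g2.

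The F1 head makes ATP, and the other subunits form its stalks and membrane part. The median log2 fold change was -0.12 over the 5 head genes and -0.23 over the other 12, a difference that was not tested. Atp5a1 and Atp5b, the alpha and beta subunits, stood at -0.10 ± 0.11 and -0.06 ± 0.09. Atp5b had 243, 197 and 241 FPKM in BBP and 243, 240 and 233 FPKM in corn oil, so BBP libraries 1 and 3 lay within the range of corn oil. Atp5c1, the gamma shaft, had 93.7, 76.6 and 97.0 FPKM in BBP and 103, 96.7 and 99.6 FPKM in corn oil, at -0.14 ± 0.09. Its groups did not overlap in CPM but met in FPKM. Atp5d, the delta subunit, stood at -0.12 ± 0.08.

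Atp5e, the epsilon subunit of the head, had the value furthest below the corn oil mean of the ubiquitous members, on the log2 CPM scale. It had 32.5, 11.3 and 26.3 FPKM in BBP and 32.8, 32.7 and 30.5 FPKM in corn oil, with BBP library 1 inside the range of corn oil. BBP library 2 stood at -1.40 on the log2 CPM scale. The log2 fold change was -0.45 ± 0.30 (unadjusted p = 0.168), and -0.14 without BBP library 2. The outcome for Atp5e thus rests on BBP library 2.

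Among the membrane and stalk genes, Atp5l, subunit g, which helps the enzyme dimerise, had 14.3, 10.6 and 13.1 FPKM in BBP and 15.3, 14.8 and 15.0 FPKM in corn oil. The groups did not overlap, and the log2 fold change was -0.23 ± 0.10 (unadjusted p = 0.0469, and 0.0827 without BBP library 2). Atp5l overlaps Gm30934 on the opposite strand, and its value is uncertain because no source used here gives the strand setting of the counting. In all, 18 members overlap another annotated gene on one strand or the other. Atp5k, subunit e, which sits beside subunit g, had 44.7, 22.0 and 36.4 FPKM in BBP and 45.0, 46.0 and 43.4 FPKM in corn oil. BBP libraries 2 and 3 were below corn oil and BBP library 1 was not. The peripheral and membrane genes other than the c subunit and Atp5l lay between -0.37 for Atp5k and -0.13 for Atp5pb (subunit b). Atp5md and Atp5mpl, small proteins of the dimer interface, stood at -0.28 ± 0.15 and -0.28 ± 0.17, and Atp5o, the oligomycin sensitivity protein, at -0.19 ± 0.10.

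How far members were lowered in BBP library 2 varied widely. Over the 41 ubiquitous subunit genes its log2 CPM values, less the corn oil mean, ran from -1.40 to 0.03, with 17 below -0.5, whereas BBP library 3 ran from -0.35 to 0.04 with 0 below -0.5. BBP library 1 ran from -0.33 to 0.15. The furthest below in BBP library 2 were Atp5e, Atp5g3, Atp5k (-0.92), Cox7a2, Uqcr11 (-0.80), Cox6c and Atp5mpl (-0.73). Cox6a1, Cycs and Uqcrb stood at 0.03, 0.03 and -0.01 there on this scale, although the FPKM of Cycs was below that of every corn oil library. Many members have short transcripts, and 14 of the 49 fell in the shortest decile of all genes, as judged by deposited counts per FPKM. The median gene of that class stood at -0.05 and -0.08 in BBP libraries 2 and 3, and with a length trend in the offsets the members' median was -0.16.

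Tissue isoforms of complex IV were present at low levels beside the ubiquitous forms. Cox6a2, the heart and skeletal muscle form, which in mouse brain has been described in parvalbumin interneurons, had 5.69, 8.24 and 4.59 FPKM in BBP and 5.87, 6.06 and 7.96 FPKM in corn oil. It made up 1.58%, 2.64% and 1.47% of Cox6a1 and Cox6a2 together in BBP and 1.84%, 1.96% and 2.27% in corn oil. BBP library 2 was highest and the groups overlapped (two-sided exact permutation p = 0.7). Pvalb, the parvalbumin gene, had 47.2, 23.6 and 23.0 FPKM in BBP and 28.0, 31.1 and 28.6 FPKM in corn oil, an order unlike that of Cox6a2. The muscle genes Acta1, Ckm and Myh1 summed to 4.39, 3.02 and 2.86 FPKM in BBP and 2.78, 3.12 and 3.96 FPKM in corn oil, nearly all of it Acta1 (2.68 to 4.17). Ckm, muscle creatine kinase, was at 0 to 0.0822 FPKM, and Myh1, a muscle myosin, at 0.0217 to 0.140 FPKM with its highest value in BBP library 1. Their part in the Cox6a2 value was not tested.

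Cox4i2, the form of Cox4 known from lung and from cells at low oxygen, had 1.64, 0.988 and 0.692 FPKM in BBP and 0.674, 0.748 and 1.15 FPKM in corn oil. Its share was 0.608%, 0.651% and 0.292% in BBP and 0.272%, 0.311% and 0.425% in corn oil, with overlap (two-sided exact permutation p = 0.3). Its log2 fold change, the most positive of the members, was 0.38 ± 0.41. It was 0.01 without BBP library 1. The mural cell markers Abcc9, Pdgfrb and Kcnj8 summed to 5.89, 5.16 and 4.88 FPKM in BBP and 4.15, 4.38 and 4.52 FPKM in corn oil, and their part in the Cox4i2 value was not tested.

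Cox7a1, the muscle form of Cox7a, held 0.760%, 2.94% and 1.58% of the pair's FPKM in BBP and 1.45%, 1.98% and 1.27% in corn oil. Cox6b2, known from testis, had 1.82, 1.41 and 1.40 FPKM in BBP and 1.93, 1.87 and 2.15 FPKM in corn oil. All 3 BBP libraries were below corn oil, but the fitted difference was only -0.32 ± 0.21 and the share overlapped, at 1.05%, 1.32% and 0.953% in BBP and 1.14%, 1.12% and 1.18% in corn oil. Cox7b2 and Cox8b were close to the limit of the counts. Cox7b2 had 11, 26 and 9 deposited counts in BBP and 26, 6 and 25 in corn oil, and Cox8b had 13, 7 and 0 in BBP and 27, 7 and 54 in corn oil. About 4 counts are assumed to stand for 1 fragment, so many of these values are a few fragments, near the floor of 12 counts or 3 fragments. The log2 fold change was -2.03 ± 1.05 for Cox8b (unadjusted p = 0.0893 by edgeR) and -0.23 ± 0.72 for Cox7b2. Neither passed the adjusted test, and the depth limits both. Cox8c is not analysed here.

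**Figure D4:**
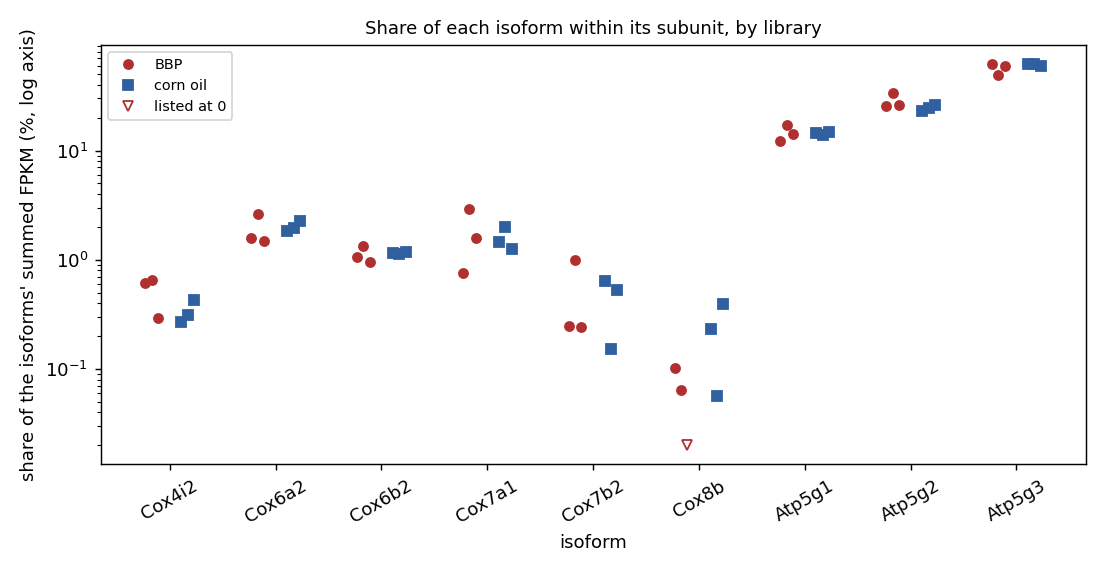
Share of each isoform in the summed FPKM of its subunit (percent, log axis), one point per library, BBP (red circles) left of corn oil (blue squares). The open triangle marks Cox8b, listed at 0 in BBP library 3. Tissue isoforms of complex IV stay at or under 2.94%, the c-subunit genes share the family between them, and the groups overlap for every isoform.

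Genes of similar sequence can share reads. Between the isoforms of a subunit, 51.4% to 68.7% of aligned coding bases were identical, with the c-subunit genes the closest. Of the 9 "-ps" rows, Cox5b-ps was the one at a high level, with 37.5, 24.7 and 32.5 FPKM in BBP and 37.8, 40.3 and 37.3 FPKM in corn oil. Like Cox5b it was lowest in BBP library 2 and next lowest in BBP library 3, but the order of the corn oil libraries was the reverse of that of Cox5b. Reads of the pair may have been split.

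The promoters of these genes are known to carry sites for NRF1, ETS factors such as GABP, YY1 and the ERR receptors. RefSeq promoter windows (GRCm38.p6, 250 bases before to 50 after each start) matched 37 members in 40 windows. Windows are shown for the members lower at an unadjusted p under 0.05, Atp5g1 and Atp5l, and for Atp5j2 (subunit f), the next by p in complex V. They are written in the direction of the gene, with capitals at motif matches on either strand: 2 ETS matches (CCGGAAG, here as its reverse complement) in Atp5l, 1 YY1 match (AAGATGGC) in Atp5j2, and no match in Atp5g1.
Atp5g1: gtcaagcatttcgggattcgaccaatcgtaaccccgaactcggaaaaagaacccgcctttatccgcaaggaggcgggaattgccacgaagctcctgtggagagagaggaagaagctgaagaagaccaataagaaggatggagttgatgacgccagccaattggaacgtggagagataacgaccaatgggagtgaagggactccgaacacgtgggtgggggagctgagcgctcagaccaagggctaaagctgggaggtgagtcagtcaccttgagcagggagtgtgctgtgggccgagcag
Atp5l: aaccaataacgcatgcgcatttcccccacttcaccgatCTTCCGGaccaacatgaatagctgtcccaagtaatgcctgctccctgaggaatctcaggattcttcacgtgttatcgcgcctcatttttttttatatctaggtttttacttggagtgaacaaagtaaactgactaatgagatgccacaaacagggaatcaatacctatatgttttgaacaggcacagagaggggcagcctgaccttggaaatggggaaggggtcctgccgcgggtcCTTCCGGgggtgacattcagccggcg
Atp5j2: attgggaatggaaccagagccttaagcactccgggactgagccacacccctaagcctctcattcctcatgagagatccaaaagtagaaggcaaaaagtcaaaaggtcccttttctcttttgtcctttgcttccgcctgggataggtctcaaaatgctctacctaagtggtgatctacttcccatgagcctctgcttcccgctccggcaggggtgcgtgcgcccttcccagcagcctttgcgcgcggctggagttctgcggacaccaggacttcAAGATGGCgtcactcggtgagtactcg
These lie at chr11:96075582-96075881, chr9:44920693-44920992 and chr5:145191492-145191791, all on the minus strand. On both strands, the NRF1 motif was in 25% of members' windows against 6.23% of all 32851 windows, CCGGAAG in 32.5% against 8.86%, AAGATGGC in 7.5% against 2.75%, and the ERR letters TCAAGGTCA in 5% against 0.423%. The AAGATGGC and TCAAGGTCA percentages of the members rest on 3 and 2 of 40 windows. Of the 37 members, 21 held at least 1 of these motifs, and the matching share over all windows was not computed. A match is a description of the letters and not a bound site.

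Genes around the complexes were compared as context. The nuclear regulators of respiratory genes include the coactivators Ppargc1a and Ppargc1b and the factors Nrf1, Gabpa and Esrra. Their median log2 fold change was 0.03, with 4 of 11 negative, Nrf1 and Esrra among them, and 0 passing the test. Ppargc1b had 0.419, 0.245 and 0.408 FPKM in BBP and 0.283, 0.233 and 0.231 FPKM in corn oil, a low level, with overlap and a log2 fold change of 0.53 ± 0.28 (unadjusted p = 0.0938). Tfb2m, a mitochondrial transcription factor, had 0.16 ± 0.12. Tfam, which packages and transcribes mitochondrial DNA, stood at -0.13 ± 0.11.

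Assembly factors had medians nearer 0 than the subunits, a difference that was not tested. Medians were -0.11 for complex II (3 of 4 negative), -0.09 for III (5 of 6), -0.11 for IV (15 of 20) and -0.03 for V (3 of 5), with 0 adjusted calls in each. Coa3, an assembly factor of complex IV, had 48.0, 33.8 and 48.1 FPKM in BBP and 52.7, 53.8 and 52.9 FPKM in corn oil. The groups did not overlap, and the log2 fold change was -0.28 ± 0.12 (unadjusted p = 0.0425). Pet100, another such factor, stood at -0.47 ± 0.23, and Uqcc2 and Ttc19, which act in the assembly of complex III, at -0.35 ± 0.25 and -0.11 ± 0.09. Sdhaf4 and Sdhaf3 of complex II stood at -0.30 ± 0.22 and -0.15 ± 0.13, and Fmc1 and Tmem70 of complex V at -0.29 ± 0.23 and -0.19 ± 0.12.

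Other nuclear-encoded mitochondrial proteins had a median of -0.11, with 10 of 12 negative. Vdac3, a channel of the outer membrane, stood at -0.17 ± 0.09, and its groups did not overlap in CPM. Slc25a4, the ADP/ATP carrier, had 221, 148 and 207 FPKM in BBP and 221, 218 and 225 FPKM in corn oil, lowest in BBP library 2. Cs, citrate synthase, had no such dip, with 43.3, 43.0 and 44.0 FPKM in BBP and 42.9, 42.3 and 44.9 FPKM in corn oil, and a log2 fold change of 0.03 ± 0.08. Partners in the respirasome and cristae had a median of -0.08, with 5 of 8 negative. Among them Phb2, a prohibitin of the inner membrane, stood at -0.14 ± 0.07 and Ndufa4, a subunit now placed in complex IV, at -0.18 ± 0.12.

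The mitochondrially encoded subunits of the same complexes lay on the other side. Their median log2 fold change was 0.23, with 0 of 6 negative and 0 passing the test. They stood at -0.02, 0.68 and -0.11 in BBP libraries 1 to 3 and at -0.13, -0.03 and 0.16 in corn oil libraries 1 to 3, as median log2 CPM minus the corn oil mean. In BBP library 2, nuclear members were lowest and mitochondrially encoded partners highest. mt-Co1, the catalytic subunit of complex IV, had 13111, 18515 and 12483 FPKM in BBP and 11930, 12624 and 14221 FPKM in corn oil. mt-Atp8, a membrane subunit of complex V, had the largest log2 fold change, 0.36 ± 0.27. Without BBP library 2 the median of the 6 was -0.07.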

How the data were processed

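Polyadenylated RNA of 6 hippocampus libraries was sequenced as strand-marked paired ends with molecular identifiers, per the labels' protocols. Tools named in the submitters' processing notes, without roles, are HISAT2 2.2.1, StringTie 2.1.6, cutadapt 1.9, edgeR, DESeq2 and UMI-tools, with mm10 as the build. The deposited table gives estimated counts (whole numbers) and FPKM per gene, per the file headers. Counts summed to 62477604 to 68422361 per library, and 4 counts were taken as 1 fragment because a count of 4 was more frequent than 3 or 5 in every library. At that ratio depth was 15619401 to 17105590 fragments.

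Groups follow the labels. Estimated counts were tested over all genes with edgeR 4.0.16 in R 4.3.3 (TMM, filterByExpr, quasi-likelihood, treatment only, p adjusted by Benjamini-Hochberg, threshold 0.05). Standard errors come from the fold change and its F statistic. Values per library are deposited FPKM, or log2 CPM with a prior count of 2, less the mean of the corn oil libraries. Non-overlap between groups was judged on CPM. Isoform shares of FPKM were compared by exact permutation (scipy 1.17.1). Alternatives used DESeq2 1.42.0, whose missing adjusted p stayed missing, and limma 3.58.1. The fits were also run on simulated data with known changes, larger than those of nearly all members and set in independent genes. That run does not show how the fits perform on small shifts shared by many genes. Coding sequences came from GENCODE M21 and were aligned with Biopython 1.88, gene types came from the deposited annotation, and figures used matplotlib 3.10.9.

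The members and context lists were chosen with earlier results of these data known. Named genes were, in each complex, the 2 with the highest mean FPKM, the 2 with the smallest p and those with the largest change in each direction, plus Cyc1, Cycs, all isoforms, members at an unadjusted p under 0.05 and, in each context list, the 2 with the smallest p. Other genes given with values were chosen after these were seen. Some cell type marker lists are not reported here.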

Additional observations from a re-analysis of the deposited data

How the results depend on the processing

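No member passed an adjusted p of 0.05 in any of the 16 alternative fits. Over all genes, the count of 0 became 3 with DESeq2, and it ranged from 0 to 3 when 1 library was left out (3 without BBP library 1 and 1 without corn oil library 2). With all libraries kept, the members' median log2 fold change lay between -0.22 (limma on log2(FPKM + 0.1)) and -0.16 (length trend), with 45 to 47 negative. The 45 were of 46 members tested by limma with a filter, and of 47 tested on counts divided by 4. Leaving out 1 library gave -0.29 to -0.09, with 42 to 48 negative, and ranges of -0.20 to -0.05 for complex II, -0.30 to -0.08 for III, -0.38 to -0.11 for IV, -0.29 to -0.10 for V and -0.095 to 0.027 for Cycs. Among the 31 named members, 476 of 488 values kept their sign. Signs changed over the fits that leave out 1 library for Uqcrb (-0.11 to 0.013), Cox6a1 (-0.027 to 0.089), Cox6a2 (-0.38 to 0.13), Atp5b (-0.094 to 8.76e-06), Cycs and Cox7b2 (-0.92 to 0.11), and for Uqcrb with the length trend (0.0055). Isoform shares, in percentage points of BBP minus corn oil, ranged over the same fits from -0.498 to 0.0857 for Cox6a2, -0.145 to 0.0408 for Cox6b2, -0.394 to 0.696 for Cox7a1, -0.197 to 0.182 for Cox7b2, -1.26 to 1.29 for Atp5g1, 1.45 to 5.49 for Atp5g2 and -6.78 to -0.194 for Atp5g3. The values nearest 0 for Atp5g2 and Atp5g3 were those without BBP library 2. The cause of these changes was not tested. Same-numbered libraries did not deviate together (correlations of -0.08, 0.08 and -0.10). With the replicate block the members' median was -0.21, with 47 negative and 0 called. The depth limits Cox7b2 and Cox8b, with 0 to 54 deposited counts per library.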
